A study of Curvularia clavata with 15 samples.

Results

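The set described here holds the gene IDs of Curvularia clavata that were abundant when the wild type (WT) grew on glucose and were near 0 when it grew on the lignosulfonate medium. An ID belonged to it if its deposited value was at least 10 FPKM in all 3 WT glucose libraries and under 1 FPKM in all 3 WT lignosulfonate libraries. FPKM scales fragment counts to transcript length and to the library's total, so levels of different genes are compared per length. The rule was met by 38 of 10170 IDs, and by 0.588% of the 6462 IDs at 10 FPKM or more in every WT glucose library. Each of the 38 was chosen by its WT values, so the difference between the WT media is a description of the choice and not a result.

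C. clavata is a filamentous fungus, and all 15 libraries came from mycelia of strain J1 shaken for 4 days at 30 °C in 100 mL of Vogel's minimal medium. The WT glucose group had 2% glucose as the added carbon source. The lignosulfonate medium held 2% lignosulfonate, a water-soluble sulfonated lignin, together with 0.25% glucose, and it was used for WT and for the ΔCclaeA, Δrpn-4 and Δtah-1 deletion mutants. Each of the 5 groups had 3 libraries. The media differ both in lignosulfonate and in the amount of glucose, and what each contributes cannot be told apart. No mutant library from the glucose medium was analysed here, so the data give no level of these IDs in the mutants on glucose. The labels do not say whether a mutant is 1 clone or whether the 3 samples of a group were separate cultures, so the p-values below cover the spread among these libraries only, some of which may be technical.

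Filamentous fungi adjust gene expression to the carbon source, and glucose is known to repress many genes for the use of other substrates while other genes depend on it. Genes of a fungal secondary metabolite pathway often lie side by side and are switched together, and LaeA proteins are known in other filamentous fungi as regulators of such groups. In budding yeast, Rpn4 is known to switch on the genes of the proteasome. The files do not pair the IDs with gene names, so the 38 are named by ID only, with no function given, and the deleted genes themselves could not be looked up among the IDs.

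FPKM sums per library ran from 662880 to 1186753. Read totals are unknown, but the smallest steps of low values gave relative depths of 0.935 to 1.16 in the 12 lignosulfonate libraries and 0.706 to 0.98 in the 3 glucose libraries. A low value in these libraries therefore stands for about the same number of fragments in each lignosulfonate group. In Δrpn-4 the bulk of IDs stood lower than in WT as deposited, with a median difference of -0.79 over all tested IDs on the log2(FPKM + 1) scale and -0.01 after median-of-ratios scaling. The unit is named in the 6 WT files but in none of the 9 mutant files, and any contrast between mutant and WT crosses that divide.

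On glucose the 38 IDs covered a wide range of levels. Group means ran from 11.6 to 5510 FPKM with a median of 97.1, against a median of 57.9 FPKM for all IDs at 10 FPKM or more there. At least 1000 FPKM was reached by 5 IDs, 14 lay between 100 and 1000, and 19 lay under 100. Together they held 1.36% to 2.13% of the FPKM sum of a glucose library, and the 10 most abundant held 86.9% of the set's own glucose total. In bulk RNA, fewer cells that express a gene and less RNA per cell cannot be told apart.

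The most abundant was yc1106_06671, at 4293, 5108 and 7127 FPKM in the 3 glucose libraries. Its mean of 5510 ± 1459 FPKM (SD, n = 3) ranked 9 among all IDs on glucose. yc1106_04105 followed at 2340, 2556 and 3416 FPKM. These IDs alone held 49.2% of the set's glucose total. yc1106_06670 had 1630 ± 223 FPKM, yc1106_09573 had 1092 ± 174 FPKM and yc1106_00081 had 1004 ± 148 FPKM (SD, n = 3 each). The next 5 by level were yc1106_04104, yc1106_00080, yc1106_03558, yc1106_02896 and yc1106_06656, with means from 894 down to 221 FPKM. Among the first 5, the library ranges of yc1106_06671, yc1106_04105 and yc1106_06670 did not overlap with each other or with the ranges below, whereas those of yc1106_09573 and yc1106_00081 overlapped.

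Replicates on glucose spread moderately. The coefficient of variation had a median of 18.2% over the 38 IDs, against 13.9% over all IDs at 10 FPKM or more. It was lowest for yc1106_03738, at 6.18%, and highest for yc1106_02460, at 71.6%. The latter was listed at 10.22, 10.12 and 31.68 FPKM, so its mean rests largely on replicate 3. That replicate held the highest value for 22 of the 38 IDs, replicate 2 for 15 and replicate 1 for 1. No such count over all IDs is given here, so this is not read as a trait of the set.

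**Figure D1:**
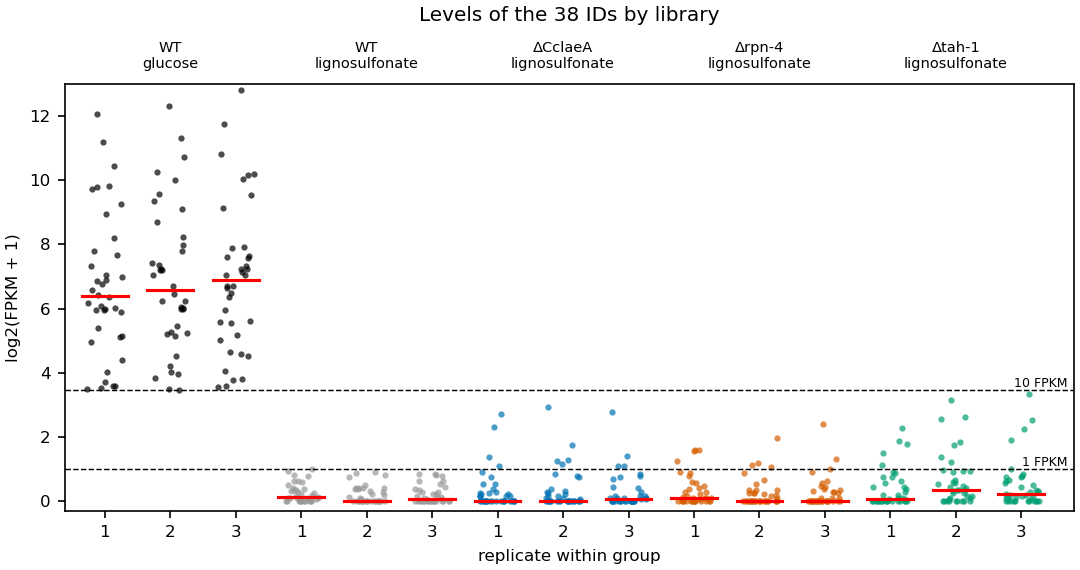
Level of each of the 38 IDs (points) in each of the 15 libraries, on a log2(FPKM + 1) axis, with the median of each library as a red bar and dashed lines at 1 and 10 FPKM. All glucose points lie above the upper line, which the rule required, and no point of a mutant library reaches it.

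In WT on lignosulfonate the rule held every value under 1 FPKM. Of the 114 values, 49 were listed at 0, and 7 IDs were listed at 0 in all 3 libraries. The 38 IDs summed to between 6.54 and 8.32 FPKM per library, against 14129 to 19814 FPKM on glucose. Near the lower threshold, yc1106_09522 and yc1106_08666 reached 0.99 and 0.93 FPKM in their highest WT lignosulfonate library and were kept, whereas yc1106_08612 and yc1106_07033 reached 1.05 and 1.18 and were not. Near the upper threshold, yc1106_02460 and yc1106_00056 had 10.12 and 10.38 FPKM in their lowest glucose library, whereas yc1106_05225 and yc1106_06105 had 9.82 and 9.62 and fell outside. The label of genes expressed only on glucose thus fits the rule in WT, but 31 of the 38 IDs had a value above 0 in at least 1 WT lignosulfonate library.

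No mutant regained the set on the lignosulfonate medium. As deposited, none of the 38 IDs reached 10 FPKM in any of the 9 mutant libraries, and the highest single value was 9.15 FPKM. For all 38 IDs the lowest glucose library exceeded the highest mutant library. The smallest such ratio was 3.93, for yc1106_09522, and the median was 98.0 over the 34 IDs with a mutant value above 0. In 28 of the 38 IDs all 9 mutant values were under 1 FPKM. Of these 28, 4 were listed at 0 in all 12 lignosulfonate libraries, namely yc1106_02275, yc1106_03738, yc1106_06672 and yc1106_09575.

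Summed over the 38 IDs, a ΔCclaeA library had 14.3 to 16.9 FPKM. The sums were 10.3 to 12.9 FPKM in Δrpn-4 libraries and 17.8 to 34.5 FPKM in those of Δtah-1. As a share of the glucose mean, the median ID stood at 0.0497% in WT on lignosulfonate, 0.24% in Δtah-1, 0.0576% in Δrpn-4 and 0.0273% in ΔCclaeA. The highest share in a mutant was 9.19%, for yc1106_05603 in Δrpn-4, which was listed at 1.36, 1.28 and 0.55 FPKM there and at 10.52 to 13.37 FPKM on glucose.

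The lower threshold of the rule was crossed by few IDs. In each mutant 3 of the 38 IDs (7.89%) had at least 1 FPKM in all 3 libraries. These were yc1106_00139, yc1106_04105 and yc1106_05274 in both ΔCclaeA and Δrpn-4, and yc1106_02896, yc1106_03740 and yc1106_04104 in Δtah-1. Without Δtah-1 replicate 1, and also with median-of-ratios scaling, the count in Δtah-1 was 5. Of the 978 other IDs under 1 FPKM in all WT lignosulfonate libraries, the share that reached 1 FPKM was 3.27% for Δtah-1, 1.64% for ΔCclaeA and 0.92% for Δrpn-4. Among these, 51 IDs had at least 1 FPKM in every glucose library and so were more like the set. Of the 51, 8 (15.7%) reached 1 FPKM in Δtah-1, 4 (7.84%) did so in Δrpn-4 and 3 (5.88%) in ΔCclaeA, beside 7.89% of the set in each mutant. The difference was not tested. At least 10 FPKM in all 3 libraries was met by 2 of those 978 for ΔCclaeA, by 1 for Δtah-1 and by 0 for Δrpn-4. All 3 of these were at or under 0.8 FPKM in every glucose library.

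**Figure D2:**
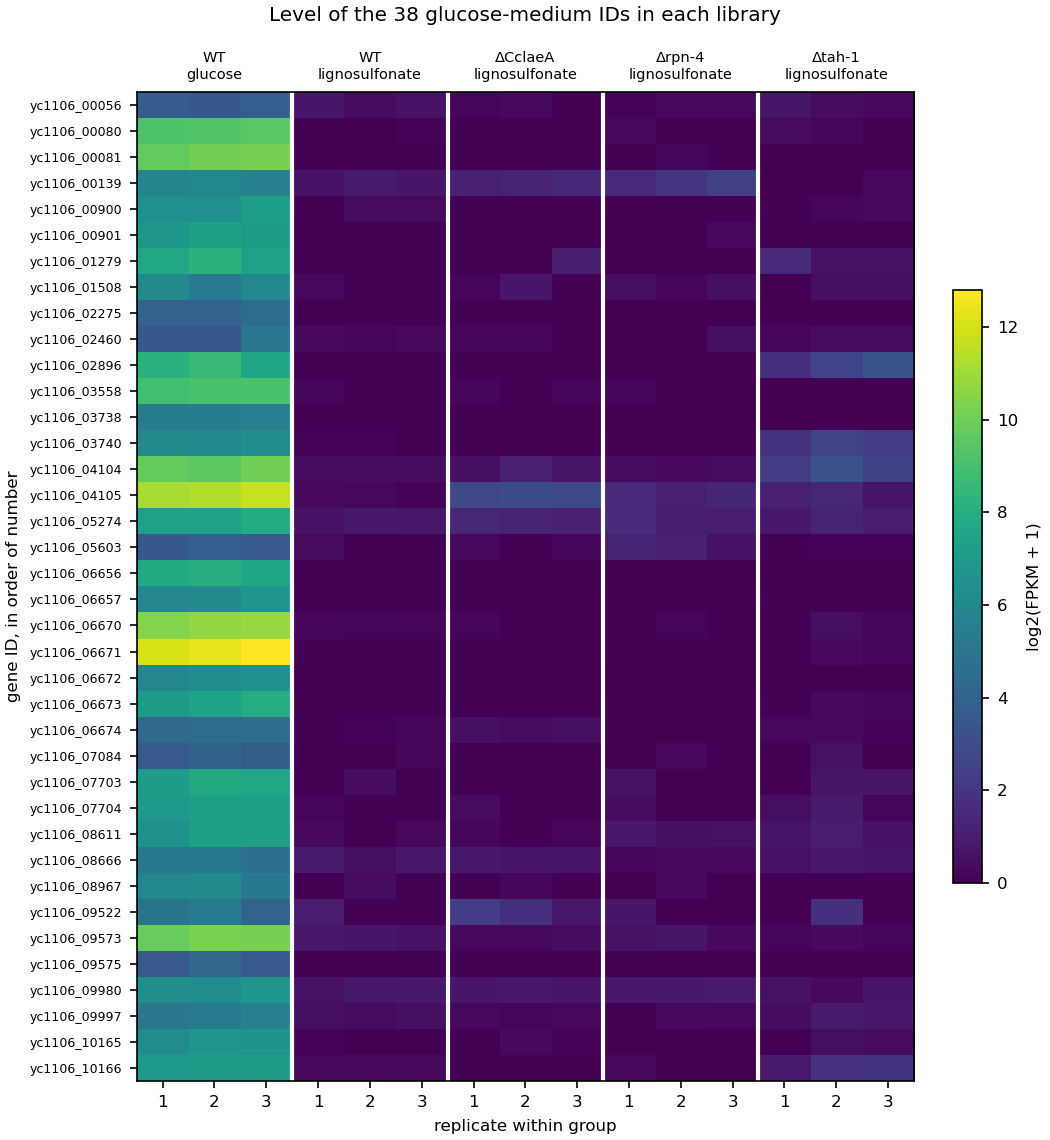
Level of each of the 38 IDs (rows, in order of ID number) in each of the 15 libraries (columns), coloured by log2(FPKM + 1). The 3 glucose columns are bright throughout, and the faint cells on lignosulfonate are mainly yc1106_02896, yc1106_03740, yc1106_04104 and yc1106_10166 in Δtah-1, yc1106_04105 and yc1106_09522 in ΔCclaeA and yc1106_00139 in Δrpn-4.

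The mutant libraries took no part in the rule, and contrasts between mutants compare the low levels of the 38 IDs among them. They were fitted with limma on log2(FPKM + 1) over all 9265 IDs that passed the expression filter, and all 38 passed it through their glucose values, which the rule required. With the filter applied to the 6 compared libraries alone, yc1106_09522 and yc1106_10166 were left out of their contrasts. A call required a difference of at least 1 on that scale together with an adjusted p (Benjamini-Hochberg) below 0.05. The 28 IDs under 1 FPKM in all 9 mutant libraries cannot differ by 1 on this scale, so only the other 10 could be called, and the calls fell on 7 of them. Contrasts that share a mutant share its libraries.

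Δtah-1 had 4 IDs above both other mutants. The first was yc1106_02896, listed at 2.46, 4.92 and 9.15 FPKM in Δtah-1 and at 0 in all 9 other lignosulfonate libraries (limma adjusted p = 3.59e-06 against ΔCclaeA and 5.5e-06 against Δrpn-4). Its groups did not overlap, and its Δtah-1 mean of 5.51 FPKM was 1.85% of its glucose mean of 297 FPKM. Scaled by relative depth, its 3 values stood at 1, 1.98 and 3.74 times the smallest value listed for it in any library, and the number of fragments behind them is unknown.

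yc1106_03740 was listed at 2.68, 5.12 and 3.79 FPKM in Δtah-1, at 0.07, 0.07 and 0 in Δrpn-4 and at 0 in all 3 ΔCclaeA libraries. Δrpn-4 minus Δtah-1 was -2.19 on the log2(FPKM + 1) scale (SE 0.17, limma adjusted p = 7.22e-08), and Δtah-1 was also called higher than ΔCclaeA (limma adjusted p = 3.29e-08). Its Δtah-1 values were 35.6, 67.3 and 50.6 times its smallest value, and its mean of 3.86 FPKM was 5.59% of the glucose mean, the highest share of any ID in Δtah-1.

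yc1106_04104 was listed at 3.87, 7.93 and 4.73 FPKM in Δtah-1, against 0.44, 1.25 and 0.60 in ΔCclaeA and 0.31, 0.27 and 0.31 in Δrpn-4. Δtah-1 was higher, with log2 differences of -1.86 for ΔCclaeA minus Δtah-1 (SE 0.22, limma adjusted p = 2.59e-06) and -2.28 for Δrpn-4 minus Δtah-1 (SE 0.22, limma adjusted p = 5.15e-07). On glucose this ID stood far higher, at 754 to 1056 FPKM, so its Δtah-1 mean was 0.616% of the glucose mean.

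yc1106_10166 was listed at 0.87, 2.58 and 2.71 FPKM in Δtah-1, at 0, 0.07 and 0 in ΔCclaeA and at 0.23, 0 and 0 in Δrpn-4. Again Δtah-1 was higher, with -1.51 for ΔCclaeA minus Δtah-1 (SE 0.21, limma adjusted p = 1.79e-05) and -1.45 for Δrpn-4 minus Δtah-1 (SE 0.21, limma adjusted p = 3.78e-05). Δtah-1 did not overlap with the other mutants and stood at 1.63% of the glucose mean. Both calls were lost with only the 6 compared libraries, where this ID did not pass the filter.

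ΔCclaeA had 1 ID above both other mutants. yc1106_04105 was listed at 5.62, 6.65 and 5.88 FPKM in ΔCclaeA, at 1.99, 1.17 and 1.51 in Δrpn-4 and at 1.17, 1.60 and 0.68 in Δtah-1. The difference was 1.47 against Δrpn-4 (SE 0.19, limma adjusted p = 7.1e-06) and 1.73 against Δtah-1 (SE 0.19, limma adjusted p = 1.23e-06). With median-of-ratios scaling the difference from Δrpn-4 was 0.94, below the size required for a call. The ΔCclaeA values were 62 to 71.3 times the smallest value of this ID, and they were 0.218% of its glucose mean of 2771 FPKM.

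yc1106_00139 was the ID in which Δtah-1 stood below the other mutants. It was listed at 2.02, 2.93 and 4.29 FPKM in Δrpn-4, at 1.15, 1.40 and 1.66 in ΔCclaeA and at 0, 0 and 0.23 in Δtah-1. It was higher in Δrpn-4 than in Δtah-1 by 1.89 (SE 0.20, limma adjusted p = 1.24e-06) and higher in ΔCclaeA than in Δtah-1 by 1.16 (SE 0.20, limma adjusted p = 0.000109). In Δrpn-4 its mean of 3.08 FPKM was 5.47% of the glucose mean.

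The last call was yc1106_09522, listed at 3.98, 2.40 and 0.78 FPKM in ΔCclaeA and at 0.72, 0 and 0 in Δrpn-4, with a difference of 1.38 (SE 0.49, limma adjusted p = 0.0217). Its spread was wide, and in Δtah-1 it was listed at 0, 2.40 and 0. The call was lost without ΔCclaeA replicate 1, with a difference of 1.04, and without ΔCclaeA replicate 2, with 1.31. It was also lost without Δrpn-4 replicate 2 or 3, with 1.25 in each case.

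**Figure D3:**
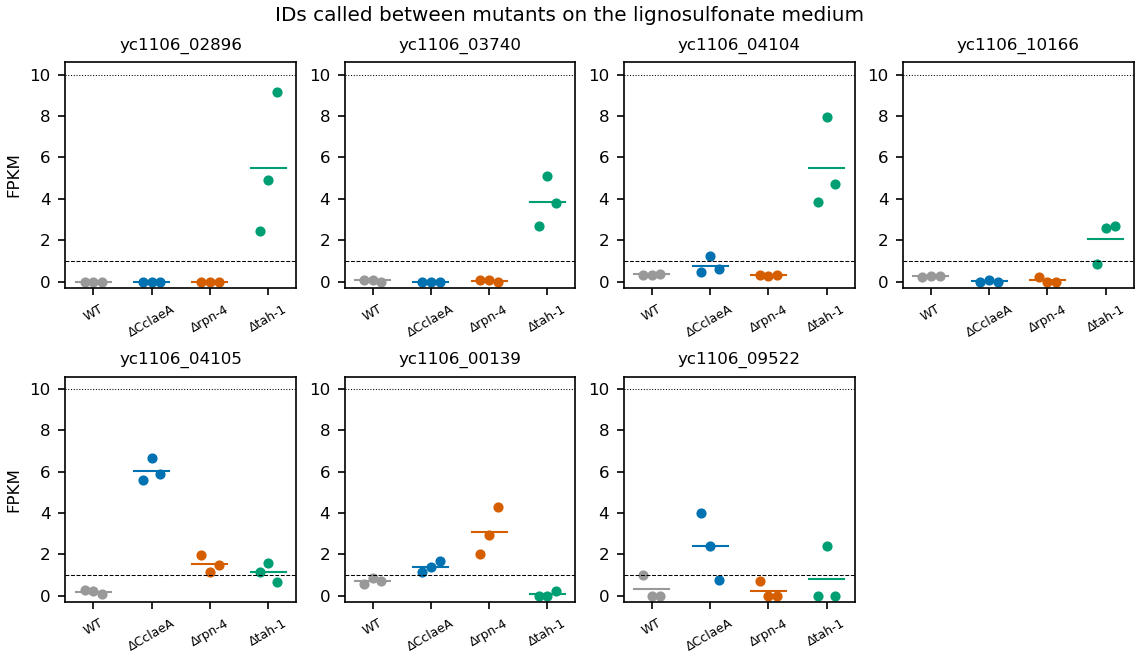
FPKM of the 7 IDs called between mutants in each lignosulfonate library (points) with group means (bars), on a linear axis, and lines at 1 and 10 FPKM. In the upper row Δtah-1 stands above the other groups, in yc1106_04105 ΔCclaeA does, and no point reaches 10 FPKM.

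The counts over the set are given with those of all tested IDs, and nothing is read from the gap, since low levels left 28 of the 38 IDs no room for a call. Between ΔCclaeA and Δrpn-4, limma called 2 of the 38 IDs higher in ΔCclaeA, where 31.5% of all tested IDs were called higher, and 0 lower, where 6.38% of all were. At an unadjusted p under 0.05, 3 were lower. All 3 also had a limma adjusted p under 0.05 and missed the call only by the minimum difference. The count of 2 became 1 without ΔCclaeA replicate 1 or 2 and without Δrpn-4 replicate 2 or 3, and without Δrpn-4 replicate 3 there was 1 lower. Between ΔCclaeA and Δtah-1, 2 were higher in ΔCclaeA and 4 lower, where 21.2% and 13.7% of all IDs were called. Between Δrpn-4 and Δtah-1, 1 was higher in Δrpn-4 and 4 lower, where 7.65% and 23.7% of all IDs were called, and without Δrpn-4 replicate 3 there were 2 higher. The median difference over the 38 IDs was -0.01, -0.02 and -0.11 in these contrasts, against 0.67, 0.21 and -0.43 over all tested IDs. Levels at or near 0 in every mutant hold the set's median close to 0 on this scale.

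The libraries of Δtah-1 lay wholly above those of ΔCclaeA for 11 of the 38 IDs and wholly below for 3, where 25.4% and 39.0% of all tested IDs did so. Against Δrpn-4 they lay wholly above for 11 and wholly below for 3, where 50.0% and 17.7% of all IDs did. In each of these contrasts, taken singly, the libraries overlapped for the remaining 24 IDs, and values tied at 0 count as overlap. Δtah-1 replicate 2 had the most IDs of the set above 0, 29 of 38, and its relative depth of 0.95 was close to that of replicates 1 and 3. The deposited median of all tested IDs was also higher in this replicate, at 35.95 FPKM, than in replicates 1 and 3, at 25.26 and 27.08 FPKM. The part of this higher library level in the values of Δtah-1 was not tested.

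Contrasts with WT on lignosulfonate share the libraries that the rule held under 1 FPKM, so they are given as counts and nothing is read from them. The number called higher than WT was 4 for Δtah-1, 2 for Δrpn-4 and 1 for ΔCclaeA, where 7.62%, 2.9% and 3.37% of all tested IDs were called higher. The ID called in ΔCclaeA was yc1106_04105, those in Δrpn-4 were yc1106_04105 and yc1106_00139, and those in Δtah-1 were yc1106_02896, yc1106_03740, yc1106_04104 and yc1106_10166. The WT values of these 6 IDs lay between 0 and 0.88 FPKM. The count in ΔCclaeA was 2 without WT on lignosulfonate replicate 1 or ΔCclaeA replicate 3, and that in Δrpn-4 was 1 without Δrpn-4 replicate 1. None was called lower by limma, where 18.7%, 34.9% and 9.2% of all tested IDs were in the same order of mutants. From under 1 FPKM a fall of 1 on this scale is not possible, so no such call could occur. At an unadjusted p under 0.05, 2 IDs per mutant were lower. At a limma adjusted p under 0.05 with no minimum difference, the counts were 2, 2 and 1 in that order.

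The 38 IDs were not spread singly through the ID numbering. The IDs run from 1 to 10170 without gaps, and nothing in the files says whether this order follows the genome. Neighbouring IDs of the set differed by 1 in 10 cases and by 2 in 2 cases, and in 0 cases by 3 to 10. With steps of at most 5 they formed 9 runs holding 21 of the 38 IDs, of which 8 runs were pairs and 1 held 5 IDs. The other 17 stood alone. Of the 76 positions directly before or after an ID of the set, 20 (26.3%) were held by another ID of the set, which makes up 0.374% of all IDs. Split into 4 equal stretches, the numbering held 10, 6, 10 and 12 IDs of the set.

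**Figure D4:**
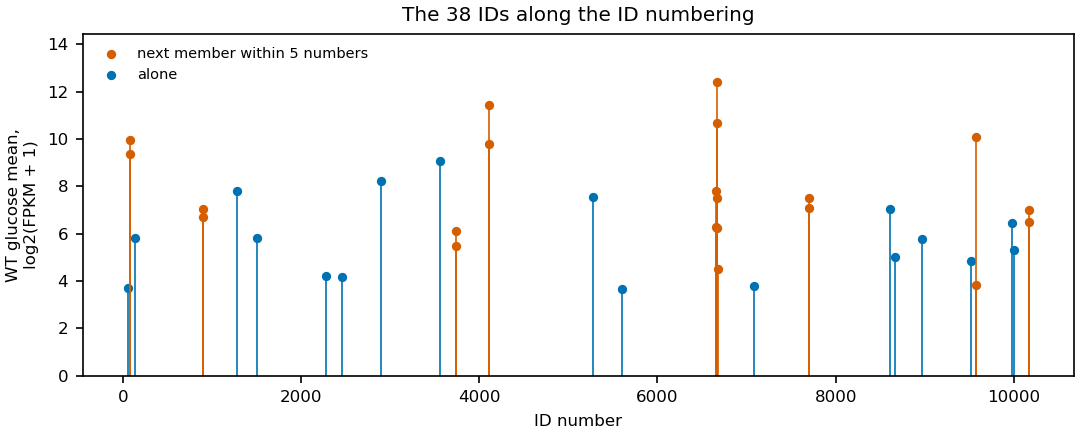
The 38 IDs along the ID numbering (horizontal axis, ID number) with their WT glucose mean as log2(FPKM + 1) on the vertical axis. IDs in the 9 runs are orange and the 17 that stand alone are blue.

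The pairs were yc1106_00080 with yc1106_00081, yc1106_00900 with yc1106_00901, yc1106_03738 with yc1106_03740, yc1106_04104 with yc1106_04105, yc1106_06656 with yc1106_06657, yc1106_07703 with yc1106_07704, yc1106_09573 with yc1106_09575, and yc1106_10165 with yc1106_10166. Levels within a pair were in some cases alike, as for yc1106_07703 and yc1106_07704 at 183 ± 45.7 and 137 ± 20.1 FPKM on glucose. In others they lay far apart, as for yc1106_09573 at 1092 ± 174 and yc1106_09575 at 13.2 ± 3.76 FPKM (SD, n = 3 each). Between the last 2, yc1106_09574 had 67.6 FPKM on glucose and 68.4 on lignosulfonate in WT, so that ID did not share the pattern.

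The run of 5 went from yc1106_06670 to yc1106_06674. On glucose its means were 1630, 5510, 74.5, 179 and 21.6 FPKM in order of number, so neighbours within the run differed widely in level. On lignosulfonate no value of these 5 IDs exceeded 0.44 FPKM in any of the 12 libraries, and yc1106_06672 was at 0 in all of them. Just before the run, yc1106_06669 fell from 656 ± 242 FPKM on glucose to 0.863 ± 0.466 on lignosulfonate in WT (SD, n = 3 each; log2 difference -8.44, SE 0.25, limma adjusted p = 2.44e-13). It missed the rule because its lignosulfonate libraries 1 and 3 had 1.07 and 1.19 FPKM. yc1106_06668 fell from 19.4 ± 2.68 to 0.757 ± 0.424 FPKM (SD, n = 3 each; log2 difference -3.56, SE 0.17, limma adjusted p = 6.22e-11) and missed it by a library at 1.24. After the run, yc1106_06675 was near 0 on both media and yc1106_06676 had 58.2 and 53.1 FPKM. In the mutants yc1106_06668 and yc1106_06669 had at most 1.11 FPKM in every library.

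The pair of yc1106_04104 and yc1106_04105 also continued into lower numbers. In WT, yc1106_04102 fell from 933 ± 158 to 1.45 ± 0.0874 FPKM and yc1106_04103 from 85.3 ± 9.85 to 2.44 ± 0.2 FPKM (SD, n = 3 each; log2 differences -8.56 and -4.64, SE 0.34 and 0.18, limma adjusted p = 6.97e-12 and 4.71e-12). The next ID, yc1106_04106, went the other way, from 1.01 to 399 FPKM. The mutants were compared with WT on lignosulfonate for these neighbours. yc1106_04102 was listed at 3.35, 16.22 and 6.68 FPKM in Δtah-1, and its difference from WT was 1.76 (SE 0.34, limma adjusted p = 0.000462), or 1.24 without Δtah-1 replicate 2. yc1106_04103 was at 6.25, 7.74 and 4.64 FPKM there, with a difference of 1.04 (SE 0.18, limma adjusted p = 0.00016) that became 0.89 and lost the call without Δtah-1 replicate 2. ΔCclaeA libraries also lay wholly above those of WT in both, at 3.12, 2.13 and 1.96 FPKM for yc1106_04102 and 5.49, 6.61 and 4.28 FPKM for yc1106_04103, but with differences of 0.46 and 0.89 neither was called. These neighbours were outside the rule, and they were singled out after their values were seen.

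**Figure D5:**
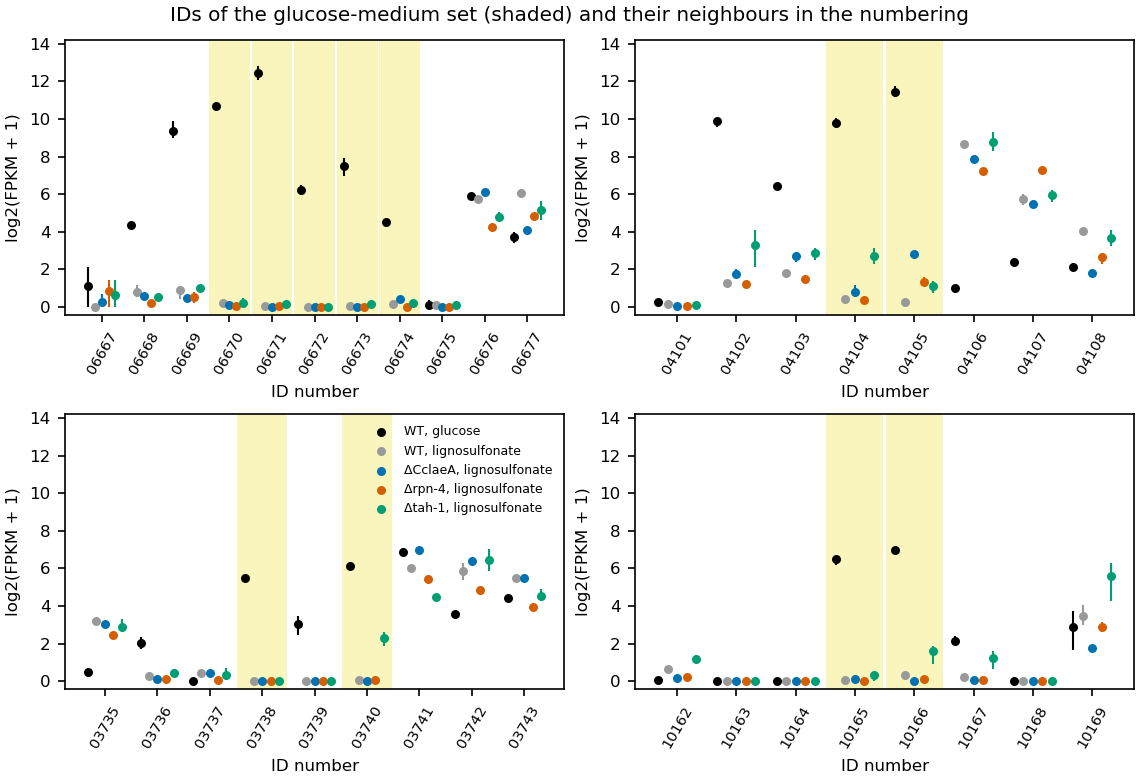
Group means (points) and library ranges (lines) on a log2(FPKM + 1) axis for 4 stretches of the ID numbering, with IDs of the set shaded. The black glucose points stand high over yc1106_06668 to yc1106_06674 and over yc1106_04102 to yc1106_04105, and the green Δtah-1 points stand above the other lignosulfonate groups at yc1106_04104, yc1106_03740 and yc1106_10166.

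Other neighbours of the set behaved in mixed ways. Of the 43 tested IDs directly beside the set but outside it, 11 (25.6%) were lower on lignosulfonate than on glucose in WT and 13 (30.2%) were higher, where 14.6% and 26.0% of all tested IDs were called. At a distance of 3 numbers the shares were 9.52% lower and 47.6% higher. yc1106_03559, next to yc1106_03558, fell from 1151 ± 61.4 to 4.2 ± 0.3 FPKM (SD, n = 3 each; log2 difference -7.79, SE 0.15, limma adjusted p = 3.46e-15). yc1106_03739, between the pair of yc1106_03738 and yc1106_03740, had 10.01, 7.31 and 4.57 FPKM on glucose and was listed at 0 in all 12 lignosulfonate libraries. In Δtah-1 yc1106_03740 stood at 2.68 to 5.12 FPKM while yc1106_03738 and yc1106_03739 beside it were at 0. On glucose the means of these neighbours were lower, at 43.3 and 7.3 FPKM against 69.1 for yc1106_03740. The smallest value above 0 listed for yc1106_03738 was 40.98 FPKM, so the level that 1 fragment would give is unknown. Nothing is read from the values at 0.

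Next to yc1106_02896, the ID yc1106_02897 stood above its glucose level in Δtah-1, although it was not lost in WT on lignosulfonate. This ID, singled out after its values were seen, had 62.7 ± 4.85 FPKM on glucose and 12.8 ± 0.28 on lignosulfonate in WT (SD, n = 3 each; log2 difference -2.2, SE 0.17, limma adjusted p = 2.06e-08). In Δtah-1 it was listed at 84.79, 144.86 and 101.74 FPKM, above every glucose library and above WT on lignosulfonate by 2.97 (SE 0.17, limma adjusted p = 5.39e-09). In ΔCclaeA and Δrpn-4 its means were 14.0 and 16.8 FPKM, and it was not called there. Other direct neighbours also stood above all their glucose libraries in Δtah-1. Among them, yc1106_02276 and yc1106_02459 did so in WT on lignosulfonate too. Their means in WT on lignosulfonate were 116 and 184 FPKM, against 1.33 and 29.0 FPKM on glucose. The same held for further direct neighbours, such as yc1106_00055 and yc1106_04106, so such a level is not particular to Δtah-1. yc1106_07705 and yc1106_02461 did not stand above all their glucose libraries in WT on lignosulfonate. In Δtah-1 yc1106_02461 had 46.1, 30.07 and 50.69 FPKM, and at most 21.39 on glucose. Its difference from WT on lignosulfonate was 2.07 (SE 0.19, limma adjusted p = 4.27e-07). Others, such as yc1106_00138 and yc1106_07085, stood below all their glucose libraries in Δtah-1, and neither side was counted.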

How the data were processed

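RNA-seq values of 15 libraries were used as deposited, 1 file per library. The values are FPKM, per the file headers of the 6 WT libraries. The headers of the 9 mutant libraries name no unit, and these values were read as FPKM too. Tools listed in the submitters' processing notes, with no role stated, are RSEM 1.3.3, HISAT2 2.1.0, fastp 0.19.5 and DESeq2. Build and annotation: not given in the sources used here. Values are relative to a library's own total, so a few abundant transcripts lower all others, and a library's read total is unknown. Relative depth came from the most frequent ratio of values between 0.08 and 0.6 FPKM, and 89.5% of 105 library pairs fitted within 0.05 on the log2 scale.

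Tests covered the 9265 IDs that reached 1 FPKM in 3 or more libraries and used log2(FPKM + 1), on which fold changes of low genes look smaller than they are. Group means were fitted over all libraries with limma 3.58.1 (trend and robust options) in R 4.3.3, with Benjamini-Hochberg adjustment over all IDs tested in each of 7 contrasts. The fit was tested on simulated data. At most 0.219% of values of 1 FPKM or more were identical between replicates. Other steps ran in Python 3.11.15 with pandas 2.3.3, NumPy 2.4.6 and, for figures, matplotlib 3.10.9. The members, lists and rules for named IDs were chosen with earlier results of these data known. Named were the 10 most abundant IDs on glucose, those called between groups (up to 3 each way), those in runs of 3 or more and those nearest each threshold. Any other ID was named after its values were seen. Alternatives were a pseudocount of 0.1, no filter, rescaling to TPM, median-of-ratios scaling, only the 6 compared libraries, a replicate block, no minimum difference, other thresholds and leaving out each replicate.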

Additional observations from a re-analysis of the deposited data

How the results depend on the processing

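That no ID of the set reached 10 FPKM in all 3 libraries of a mutant held with median-of-ratios scaling, with TPM and without each replicate, and the range stayed at 0. It did not extend to single libraries, since yc1106_02896, at 9.15 FPKM in Δtah-1 replicate 3, passed 10 after either scaling. The size of the set depended on its thresholds: 74 IDs met 5 and 2 FPKM, 25 met 20 and 0.5 FPKM, 35 met the rule after either scaling, and 38 to 43 met it without a WT replicate. At 1 FPKM the count in Δtah-1 was 5 with median of ratios and with TPM, and without a replicate the counts were 3 to 4 in ΔCclaeA and Δrpn-4 and 3 to 5 in Δtah-1. Runs held 17 IDs with steps of 1.

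With a pseudocount of 0.1 in place of 1, the IDs called against WT were 2 higher and 4 lower in ΔCclaeA, 4 and 4 in Δrpn-4, and 8 and 2 in Δtah-1. Between mutants they were 5 higher and 3 lower in ΔCclaeA against Δrpn-4, 11 lower in ΔCclaeA against Δtah-1, and 2 higher and 11 lower in Δrpn-4 against Δtah-1. With no minimum difference, 1 was lower in ΔCclaeA than in WT, 4 were higher and 2 lower in Δrpn-4, and 7 were higher and 2 lower in Δtah-1. ΔCclaeA then had 4 higher and 3 lower against Δrpn-4, and 2 higher and 6 lower against Δtah-1. Δrpn-4 then had 2 higher and 7 lower against Δtah-1. Median of ratios gave 3 higher in Δrpn-4 against WT, yc1106_05603 being added. It also gave 1 higher and 2 lower in ΔCclaeA against Δrpn-4, and 2 higher in Δrpn-4 against Δtah-1. TPM gave 2 higher in ΔCclaeA and 6 higher in Δtah-1 against WT, 3 higher in ΔCclaeA against Δtah-1 and 5 lower in Δrpn-4 against Δtah-1. With only the 6 compared libraries, 1 was higher in ΔCclaeA against Δrpn-4, since the filter then left out yc1106_09522. It also left out yc1106_10166, so 3 in place of 4 were higher in Δtah-1 against WT and against each other mutant. For the other moves the cause was not tested. Shares of all tested IDs called were taken for the main setting only. The counts under the alternatives, and those without a replicate, therefore say nothing of the set against other IDs.

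Without each replicate, counts against WT were 1 to 2 higher in ΔCclaeA, 1 to 3 in Δrpn-4 and 4 to 5 in Δtah-1, with 0 lower. Between mutants they were 1 to 2 higher and 0 to 1 lower in ΔCclaeA against Δrpn-4, 2 to 3 higher and 4 lower in ΔCclaeA against Δtah-1, and 1 to 2 higher and 4 to 5 lower in Δrpn-4 against Δtah-1. Of 272 values of 23 differences of named IDs under these alternatives, 265 kept the call, 7 lost it and 0 changed sign. Outside this tally are the calls of yc1106_09522 and yc1106_10166 lost with only the 6 compared libraries, where the filter left these IDs out.

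The deviations of same-numbered libraries of different groups had correlations from -0.31 to 0.51, and in 0 of 10 pairs of groups were all 3 above 0.1. Of the 30 correlations, 7 were above 0.1. Between WT on glucose and WT on lignosulfonate they were 0.01, 0.44 and 0.51 for replicates 1, 2 and 3. Whether the numbers pair samples was not tested. With the replicate number as a block, 2 IDs in place of 1 were higher in ΔCclaeA against WT, and 3 in place of 2 against Δtah-1, yc1106_09522 being added in both. Values near 1 fragment limit what can be said of any ID under 1 FPKM.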
